A study of Mus musculus with 21 samples.

Results

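Described here are 10 genes of Wnt signalling and of epithelial stem cells, Lgr4, Lgr5, Lgr6, Wnt10a, Wnt10b, Axin2, Ctnnb1, Rspo2, Lrig1 and Lef1, out of 43193 gene symbols of the deposited annotation. They were chosen by name, and each was read at the locus that holds its exons. The libraries were made from circumvallate taste buds, the clusters of sensory cells that line the trench of a single large papilla on the rear tongue. All animals were wild type, of the inbred strain C57BL/6J, adult and 20 to 24 weeks old, and there were 21 libraries, of which 7 were Ad lib, 7 Satiated and 7 Hungry by their labels. The study's design text describes these mice as fed ad libitum, fed or fasted. RNA was total RNA from dissected papillae, copied into cDNA with oligo(dT) primers. The labels do not say whether each library came from 1 animal, so the spread given below may be in part technical.

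In the canonical Wnt pathway, secreted Wnt proteins bind Frizzled receptors with an LRP co-receptor, and the destruction complex, built on Axin and APC, then stops marking β-catenin for degradation. β-catenin enters the nucleus and binds TCF and LEF proteins on target genes. R-spondins bind LGR receptors and raise the sensitivity to Wnt, because together they draw the ubiquitin ligases ZNRF3 and RNF43 away from the Frizzled receptors. Taste buds lose and replace cells throughout adult life, and this pathway is known to be needed for that renewal, with Lgr5 and Lgr6 marking progenitors in and around the taste papillae.

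The expression table could answer how abundant, how uneven between libraries and how well annotated these genes were, but not whether they changed with feeding. Its values were the same under all 3 condition names at every one of 32052 loci, so 0 loci (0.0%) differed, and each value pools the 21 libraries. No level of a single library is in the table, and therefore neither a fold change between groups nor a test could be made. A level is the authors' mean number of size-factor-scaled fragments per library that are compatible with an annotated transcript, a size factor being the divisor that brings libraries of unequal depth to 1 scale. The ± value is the SD from the authors' variance, which was taken within sets of the 21 libraries and so leaves out differences between the sets. CV is that SD over the mean, and "per kb" means divided by the length of the gene's longest annotated transcript. Summed over all loci, the scaled means came to 21881979 compatible and 23769781 total fragments, which are not the sequenced depth of a library. The 10 loci together took 0.237% of the compatible ones, or 0.0614% without the Ctnnb1 locus. As a check of the tissue label, 9 of 9 taste cell markers were detected, led by the keratin Krt8 at 37058 fragments (CV 0.0577) and the taste G protein Gnat3 at 24576. Markers of the surrounding epithelium were detected too, 6 of 6 basal and 5 of 5 suprabasal. The basal keratins Krt5 and Krt14 had 3203 and 2637 fragments. The suprabasal keratins Krt4 and Krt13 had means of 19096 and 17703, near that of Gnat3. Those means were uneven between libraries, with CVs of 1.50 and 1.58 against 0.131 for Gnat3. The other suprabasal markers Krt10, Krt1 and Lor were far lower, at 121, 36.6 and 193. Markers of other cells were also detected, 4 of 4 for macrophages, 4 of 5 for Schwann cells and nerve and 2 of 3 for endothelium. For fibroblasts and matrix it was 2 of 6. For skeletal muscle it was 1 of 5, Myh2 at a locus of 2 gene symbols, while Acta1 could not be read. For von Ebner gland it was 1 of 5, Dmbt1 at a locus of 44 gene symbols, so that level cannot be given to the gene itself. The gland markers Lcn11, Lipf, Bpifb9b and Azgp1 had 0, 3.04, 0.130 and 1.10 fragments. Pdgfra and Mbp each had 814 fragments. Of all protein-coding gene symbols, 67.6% lay at a detected locus. Bulk levels of this kind cannot tell fewer cells of a type from less RNA per cell.

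A locus was called detected at a mean of at least 10 compatible fragments. By that measure 9 of the 10 genes were detected, against 42.0% of all loci, 52.7% of all gene symbols and 67.6% of protein-coding gene symbols, and Wnt10b alone was not. The median level of the 10 genes was 298.8 per kb, beside 154.5 per kb over 8696 detected loci that hold a single gene symbol. These sets are unlike, since the 10 include the undetected Wnt10b and 4 genes at shared loci. Receptors, transducers and the feedback gene Axin2 were all well above the detection minimum, while the 3 ligand genes took the 3 lowest places. Of the 10 genes, 6 have a locus to themselves and 4 (Lgr5, Axin2, Ctnnb1 and Lrig1) share it with other annotated genes, whose fragments are then part of the level. Strandedness of the libraries is not given in the sources used here, so reads of a gene and of an antisense neighbour cannot be told apart.

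**Figure D1:**
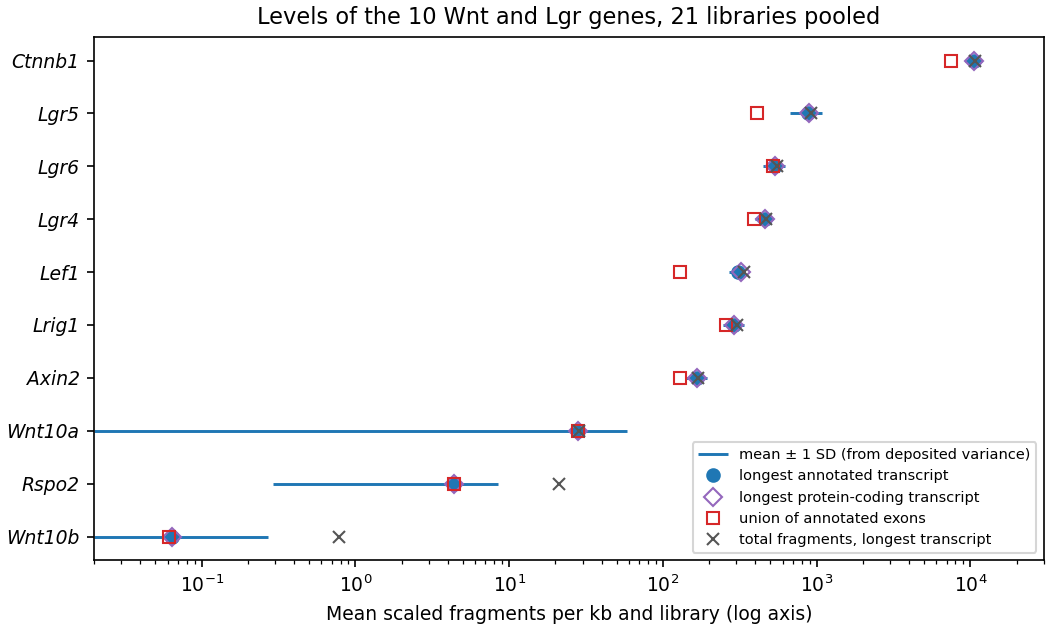
Mean level of each gene in scaled fragments per kb and library on a log axis, by compatible fragments over 3 lengths (filled circle, longest annotated transcript; diamond, longest protein-coding transcript; square, union of annotated exons) and by total fragments (cross); blue lines are ± 1 SD of the main measure, running off the axis where the SD exceeds the mean. Ctnnb1 stands highest at 10596 and Wnt10b lowest at 0.0639, and the crosses of Rspo2 and Wnt10b lie far to the right of their circles.

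The receptors Lgr4, Lgr5 and Lgr6 are related proteins with a long outer domain of leucine-rich repeats, each about as long as 24 codons, to which R-spondins bind. Their main transcripts, in GENCODE M21 on GRCm38, have 18 exons each, and 9 of the 18 are exactly 72 bases long in each gene. Exons 2 to 15, 14 in a row, had the same length in all 3 genes. Across these 1194 bases 44.1% were identical in all 3, and by exon the identity ranged from 50.8% to 72.2% between Lgr5 and Lgr6 and from 38.9% to 70.8% between Lgr4 and Lgr6. Lgr5 and Lgr6 were the most alike pair in 9 of the 14 exons. The genes share this repeated layout but differ at many bases of each exon, which bears on how far their fragments can be told apart.

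The second exon (72 bases) is shown because a coding Lgr4 transcript in the annotation leaves it out. Capitals mark bases that are the same in all 3 genes, 36 of 72. The exons lie at chr2:109970692-109970763 on the plus strand for Lgr4, chr10:115520606-115520677 on the minus strand for Lgr5 and chr1:135075227-135075298 on the minus strand for Lgr6.
Lgr4 exon 2: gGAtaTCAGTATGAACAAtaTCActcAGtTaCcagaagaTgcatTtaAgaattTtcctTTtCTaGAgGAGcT
Lgr5 exon 2: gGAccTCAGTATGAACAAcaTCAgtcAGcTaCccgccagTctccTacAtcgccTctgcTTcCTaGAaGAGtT
Lgr6 exon 2: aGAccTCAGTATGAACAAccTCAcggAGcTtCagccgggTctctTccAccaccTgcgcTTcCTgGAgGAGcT

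The eighth exon is the one that a coding Lgr5 transcript of 2652 bases leaves out, and a further coding transcript of 2508 bases leaves out exon 5, which is 216 bases long, or 3 times the repeat length. Capitals again mark bases shared by all 3 genes, here 33 of 72. The exons lie at chr2:110000296-110000367 (plus), chr10:115470564-115470635 (minus) and chr1:135003458-135003529 (minus).
Lgr4 exon 8: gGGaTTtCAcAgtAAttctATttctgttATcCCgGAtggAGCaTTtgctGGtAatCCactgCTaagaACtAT
Lgr5 exon 8: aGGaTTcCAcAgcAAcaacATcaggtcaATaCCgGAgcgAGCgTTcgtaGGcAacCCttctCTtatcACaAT
Lgr6 exon 8: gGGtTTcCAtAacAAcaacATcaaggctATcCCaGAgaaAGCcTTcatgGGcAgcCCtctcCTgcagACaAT

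All 3 receptors were abundant. Lgr5, best known as the marker of cycling stem cells in the intestinal crypt, lies at chr10:115450311-115587780 (minus strand) and had 4195 ± 970 compatible fragments (SD, n = 21 libraries pooled), or 875 ± 202 per kb. Lgr6, its close relative and a marker of stem cells in skin, lies at chr1:134983301-135105276 (minus) and had 3573 ± 573 fragments, or 535 ± 85.8 per kb. Lgr4, the widely expressed member of the family, lies at chr2:109917647-110014257 (plus) and had 2318 ± 309 fragments, or 458 ± 61.1 per kb. Each of them exceeded at least 74.1% of detected single-symbol loci in level per kb. The levels of Lgr6 and Lgr4 differed by 77.3 per kb, less than the 147 of the sum of their SDs. Here and below, such a sum describes scatter between libraries. It is not the precision of a mean and does not test whether 2 means differ. Lgr5 exceeded Lgr6 by 340 per kb, more than the 288 of their SDs, but this order depended on the length used. The ratio of Lgr5 to Lgr6 was 1.64 per kb of the longest annotated transcript, 1.66 per kb of the longest protein-coding transcript and 1.17 for fragments not divided by length. Divided by the union of all annotated exons of each gene, 10264 bases for Lgr5 and 6851 for Lgr6, the ratio was 0.784 and the order of the pair was reversed. The Lgr5 locus also holds A930009A15Rik, an antisense gene inside the span of Lgr5 whose 1001 exon bases overlap 0 exon bases of Lgr5.

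Lgr5 was the most uneven of the 3 receptors. Its CV was 0.231, against 0.160 for Lgr6 and 0.133 for Lgr4. Variance at the Lgr5 locus, shared with A930009A15Rik, was 224 times the mean, where counting error alone would give about 1. That ratio was 91.8 for Lgr6 and 41.3 for Lgr4, but 619 for the more abundant Ctnnb1, whose CV was only 0.127. Lgr5 lay above the authors' fitted variance by 0.98 on the log2 scale. The fitted variance is the value their model gives for a locus of that mean, and 92.1% of detected loci had a smaller excess. Lgr4 lay below its fitted variance (-0.84), and Lgr6 close to it (-0.12), where the median of all detected loci was -0.65. Seen against neighbouring loci of like level in place of the fitted variance, the typical CV was 0.125 at Lgr5, 0.123 at Lgr6 and 0.138 at Lgr4. By that measure Lgr5 was again the most uneven, Lgr4 was near the typical value, and Lgr6 was on the uneven side, with an excess of 0.76. Of the 6 basal epithelial markers 4 were more uneven than Lgr5, the transcription factor gene Trp63 with a CV of 0.551 and the keratins with 0.513 for Krt5, 0.780 for Krt15 and 0.987 for Krt14. The integrin genes Itga6 and Itgb4 were not, at 0.133 and 0.204. All 5 suprabasal markers had a larger CV than Lgr5, from 0.262 for Krt10 to 3.40 for Lor, but their levels differed widely. Krt10 and Krt1, at 121 and 36.6 fragments, lay below their fitted variance (-1.79 and -0.64, log2). Krt4, Krt13 and Lor lay above theirs (6.34, 6.51 and 6.12). Whether the same libraries were high for Lgr5 and for these markers was not tested, since the table gives no value per library.

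The Wnt ligand Wnt10a, known for its part in the development of teeth, hair follicles and tongue papillae, was expressed at a low and very uneven level. Its locus, chr1:74791516-74804179 on the plus strand, held 68.8 ± 75.4 fragments (SD, n = 21 libraries pooled), or 27.9 ± 30.6 per kb. The SD was thus larger than the mean, with a CV of 1.10 that exceeded 96.7% of detected loci. Of the 1444 scaled fragments summed over libraries, the leading library held at least 10.5%, the least that this variance allows, where an even share would be 4.76%. Wnt10a lay above the fitted variance by 1.73 (log2), more than 96.4% of detected loci, and the typical CV of loci at its level was 0.510. Of its total fragments 98.3% were compatible with annotated transcripts. Wnt6, the neighbouring Wnt gene, begins or ends 6193 bases away on the same strand and had 23.3 fragments (CV 0.677), part of which may be those of Gm29539 at the same locus.

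Among the 3 Wnt10a transcripts of the merged annotation, 1 carries no reference identifier and differs from the longest reference transcript by an exon. Transcripts without such an identifier are called assembled here. The assembled Wnt10a transcript has 3 exons and 2088 bases, while the reference transcript has 4 exons and 2468 bases. The exon it lacks is the third, at chr1:74800533-74800912, of 380 bases, a length that is not a multiple of 3. A shorter reference transcript of 2 exons joins the same exons in the same way, so the junction itself is annotated. The junctions that tell the forms apart are printed here, 15 bases from each side, with capitals for the bases after the junction.
Wnt10a exon 2 to exon 3: ccatcttcagccgagGTTTTCGAGAGAGTG
Wnt10a exon 3 to exon 4: cgtgtgggccggcagGCGGTGATGGAGAAC
Wnt10a exon 2 to exon 4: ccatcttcagccgagGCGGTGATGGAGAAC

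The table gives 1 level for the locus, so how much of the Wnt10a signal came from either form is not known.

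**Figure D2:**
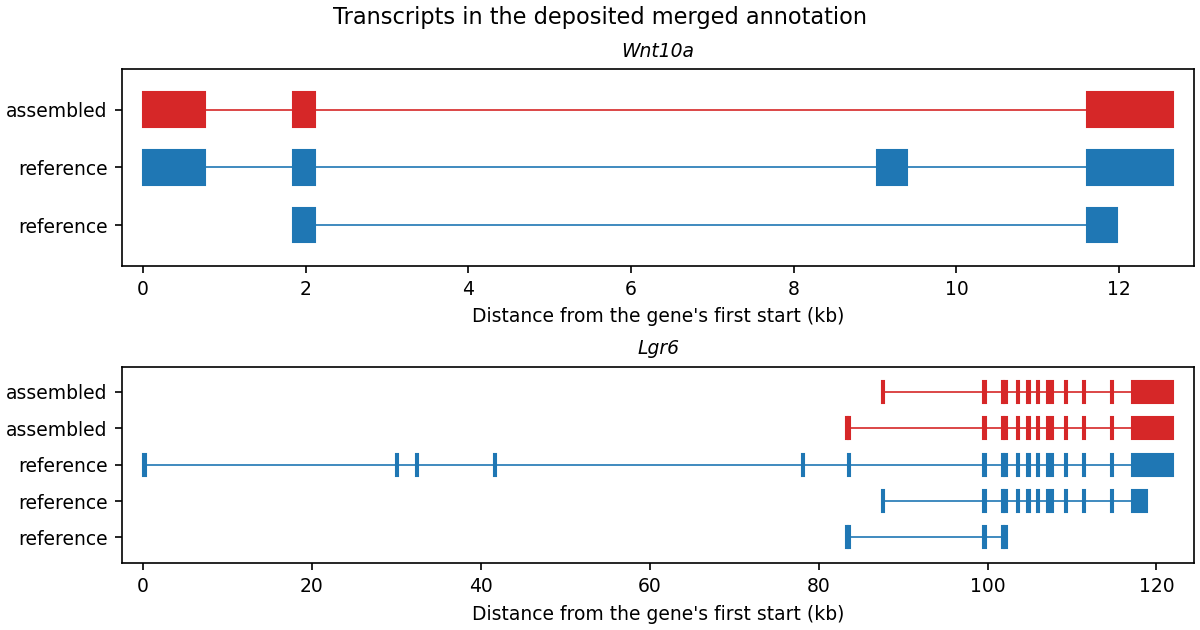
Exons (boxes) and introns (lines) of the transcripts of Wnt10a and Lgr6 in the deposited merged annotation, against the distance in kb from the first start of each gene. Blue marks reference transcripts and red assembled ones, which carry no reference identifier. The assembled Wnt10a form joins exons 1, 2 and 4, and both assembled Lgr6 forms begin inside the gene and run to its end.

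Wnt10b, a related ligand, was the only one of the 10 genes that was not detected. Its locus, chr15:98771753-98778150 on the minus strand, had a mean of 0.142 ± 0.457 fragments per library, which is 2.99 scaled fragments summed over all 21 libraries. At least 54.0% of these came from a single library. A further 1.59 fragments per library fell in the locus without being compatible with a transcript, so that compatible fragments were 8.19% of the total. Wnt1, the gene 11706 bases away on the opposite strand, had 0.237 fragments. Expression of Wnt10b was therefore not detectable at this depth, and the interval behind so few fragments cannot be given without levels per library.

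The third ligand is the R-spondin Rspo2, which binds the LGR receptors. At chr15:43020811-43170818 (minus strand) it had 14.6 ± 13.6 compatible fragments (SD, n = 21 libraries pooled), or 4.39 ± 4.09 per kb, just above the detection minimum. Most fragments of the Rspo2 locus did not match its only annotated transcript of 6 exons and 3324 bases. Compatible fragments were 20.8% of the 70.2 total fragments, a share below 25% that only 2.96% of detected loci had. The remaining 55.6 fragments per library lay inside the locus, where no other gene is annotated, and their position within it is not recorded. The CV was 0.933 for compatible and 0.557 for total fragments. Its level per kb was 4.39 by compatible but 21.1 by total fragments. Wnt10a exceeded Rspo2 6.35 times per kb by compatible fragments, a difference of 23.5 per kb that was within the 34.6 of the summed SDs, and 1.34 times by total fragments. Rspo2 was still the best represented of its family, since its relatives Rspo1, Rspo3 and Rspo4 had 0.796, 0.750 and 0.189 compatible fragments, and those of Rspo4 all came from 1 library.

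**Figure D3:**
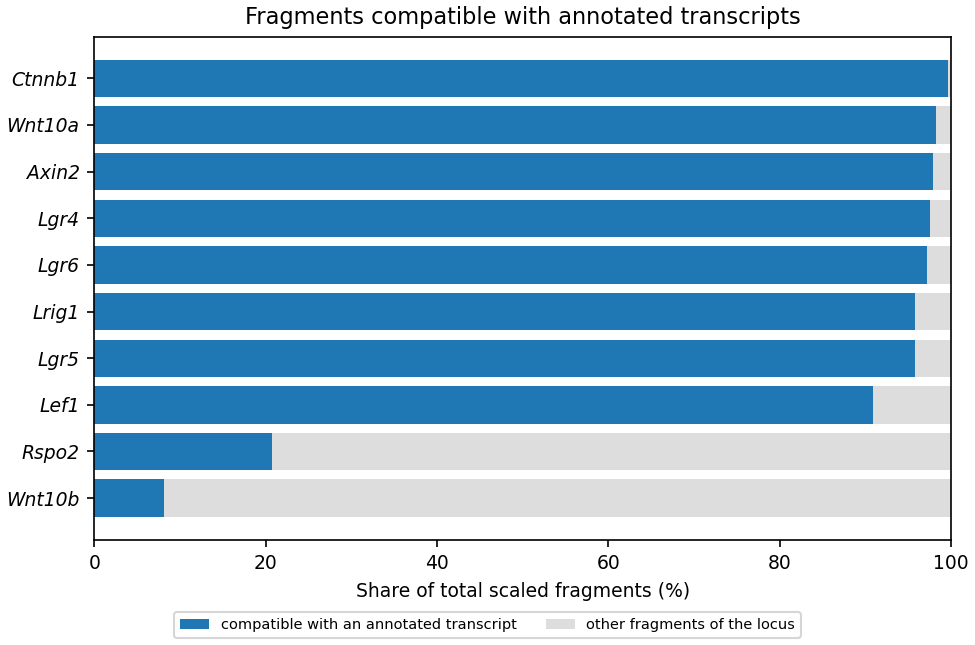
Share of the total scaled fragments of each locus, in percent, that was compatible with an annotated transcript (blue), with the remaining fragments of the locus in grey. In 8 of the 10 genes the share is over 90%, while Rspo2 has 20.8% and Wnt10b 8.19%.

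For the other 8 genes the compatible share ran from 90.9% for Lef1 to 99.6% for Ctnnb1. The median over the 10 genes was 96.5%, and over all detected loci it was 95.0%. Only 7.2% of detected loci had a share under 50%, the range in which Rspo2 lay.

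Ctnnb1 encodes β-catenin, which carries the Wnt signal to the nucleus and also links cadherins to the cytoskeleton. It was the most abundant of the 10 genes by far. Its locus had 38389 ± 4876 fragments (SD, n = 21 libraries pooled), or 10596 ± 1346 per kb, above 99.5% of detected single-symbol loci and 12.1 times Lgr5. Its CV of 0.127 was below the fitted one of 0.189 and near the 0.138 of loci of like level. The locus, chr9:120924455-121277197, spans 5 annotated genes, among them the kinase gene Ulk4 on the opposite strand, 240 of whose 7984 exon bases overlap exons of Ctnnb1. Divided by all merged exons of that locus, 14100 bases, the level was 2723 per kb, and it was still the highest of the 10 genes.

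Lef1 encodes a DNA-binding partner of β-catenin. At chr3:131110471-131224356 (plus strand) it had 1123 ± 136 fragments, or 307 ± 37.1 per kb. It was the steadiest of the 10 genes, with a CV of 0.121, and it lay below the fitted variance by more than any other of them (-1.62, log2). Lef1 also had the largest effect of exon length among the genes with a locus to themselves. Its longest annotated transcript of 3656 bases has 4 exons, the longest protein-coding one has 3482 bases and gave 323 per kb, and the union of its exons, 8654 bases, gave 130 per kb.

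RefSeq promoter windows on GRCm38.p6, from 250 bases before to 50 bases after a start, were available for 7 of the 10 genes, 11 windows in all. They were searched for CTTTGA or its reverse complement TCAAAG, the core letters bound by TCF and LEF proteins, on both strands, and no other motif was searched. Of all 32851 windows, the motif was present in 5257, or 16.0%. Among the 11 windows it was found only in 1 of the 4 windows of Lef1, at chr3:131156044-131156343 (plus strand), where it occurred 2 times, starting at positions 71 and 131. This window lies inside the gene, and no transcript of the deposited merged annotation begins at its start site. The same held for the start sites of the other Lef1 windows and of the Lrig1 window. The window is printed because it is the only one of these genes with a match, which capitals mark.
Lef1 window: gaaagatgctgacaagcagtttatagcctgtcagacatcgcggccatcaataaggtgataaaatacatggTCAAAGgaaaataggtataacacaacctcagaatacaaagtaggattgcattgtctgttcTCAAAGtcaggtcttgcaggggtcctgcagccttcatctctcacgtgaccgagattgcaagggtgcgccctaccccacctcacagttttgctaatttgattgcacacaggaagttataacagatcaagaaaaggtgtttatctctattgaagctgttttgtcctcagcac

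A match of these letters describes the sequence and is not evidence of binding.

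Axin2 is both a scaffold of the destruction complex and a widely used readout of Wnt activity, since Wnt signalling raises its transcription. It was expressed at an intermediate level, 709 ± 113 fragments (SD, n = 21 libraries pooled), or 166.5 ± 26.6 per kb, above 51.6% of detected single-symbol loci. Its CV was 0.160, against a typical 0.195 at that level, and it lay below the fitted variance (-1.26, log2). The locus, chr11:108920349-108950783 (plus), includes the antisense gene Gm11670, 209 of whose 511 exon bases overlap exons of Axin2. The constitutive relative Axin1 had 492 fragments, or 130 ± 25.9 per kb. The levels of Axin1 and Axin2 per kb thus lay within their summed spread.

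Lrig1, a membrane protein that restrains EGF receptor family signalling and marks stem cells in several epithelia, had 1438 ± 225 fragments, or 290 ± 45.5 per kb. Its level differed from that of Lef1 by 16.8 per kb, less than the summed SDs of 82.6, and whether the means differ was not tested. Its CV of 0.157 was close to the typical 0.154. Its locus, chr6:94500314-94700158, also holds Slc25a26 on the opposite strand, with 120 shared exon bases, and Mir7041. The relatives Lrig2 and Lrig3 were lower, at 125 ± 20.8 and 42.5 ± 16.1 per kb. The EGF receptor gene Egfr had 84.9 ± 32.1 per kb and was uneven, 1.43 (log2) above its fitted variance.

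In order of level per kb, the genes ran Ctnnb1, Lgr5, Lgr6, Lgr4, Lef1, Lrig1, Axin2, Wnt10a, Rspo2 and Wnt10b. Neighbours in this order that did not differ beyond the sum of their SDs were Lgr6 and Lgr4, Lef1 and Lrig1, and Wnt10a and Rspo2. Spread followed the level only in part. The median CV of the 10 genes was 0.160, beside 0.231 over all detected loci, whose quartiles were 0.151 and 0.449. A CV of at least 0.9 was found for Wnt10a, Wnt10b and Rspo2, and for 6.3% of detected loci. Of the 9 detected genes, 2 (Lgr5 and Wnt10a) lay above the authors' fitted variance, a share close to the 26.1% of all detected loci. Against the running median of neighbouring loci 5 of the 9 lay above, beside 49.7% of detected loci.

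**Figure D4:**
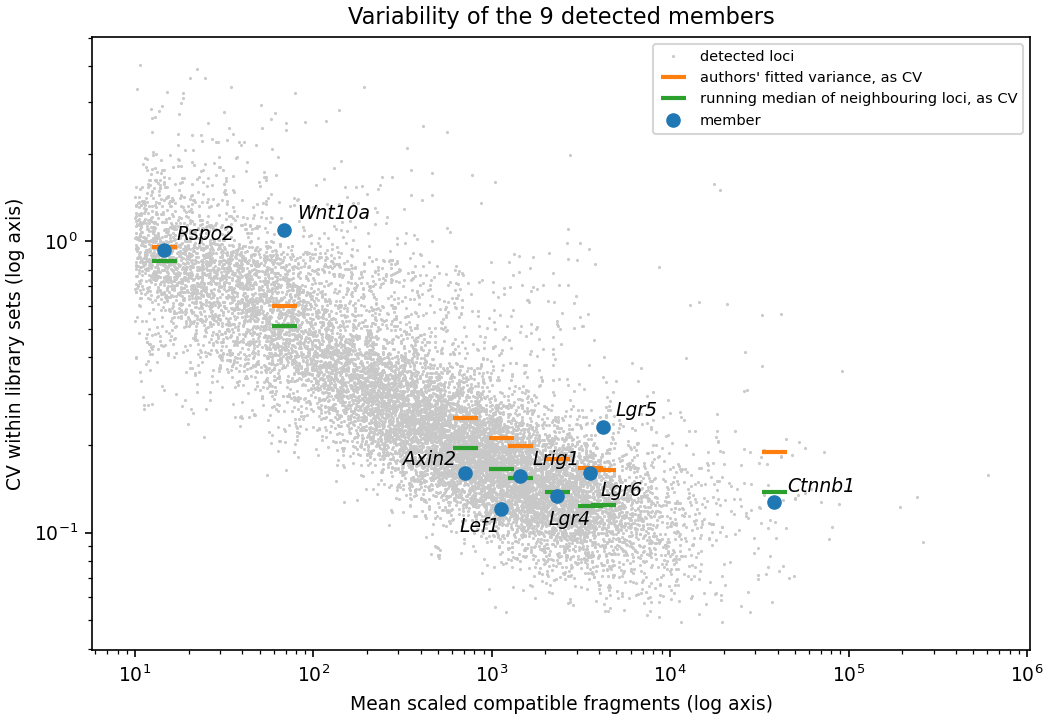
CV within library sets against mean compatible fragments, both on log axes, for 13467 detected loci (grey) and the 9 detected genes (blue), with the CV that the authors' fitted variance gives (orange bars) and the typical CV of neighbouring loci (green bars). Wnt10a (1.10) and Lgr5 (0.231) lie above both bars, and Lef1 (0.121), Ctnnb1 (0.127), Lgr4 (0.133) and Axin2 (0.160) lie below both.

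The merged annotation holds 70 transcripts of the 10 genes, of which 52 are reference transcripts and 18 are assembled, without a reference identifier. How far each of the 18 rests on reads of these libraries is not recorded. Of the 18 assembled, 17 are combinations of exons not in the reference used. All 185 of their introns are in GENCODE M21, and all 18 begin at a start of a reference transcript. Having every intron in that release was common, as 97.7% of the 18052 assembled new combinations of the whole annotation did. The share of those that begin at a reference start was not counted. Assembled transcripts were found for 8 genes, most of them for Ctnnb1 (5) and Axin2 (3), and for neither Wnt10b nor Rspo2. Both assembled Lgr6 transcripts, of 13 and 14 exons, begin at internal starts of the reference, 135017779 and 135022091 on chromosome 1, and run to the far end of the gene, as the map of Wnt10a and Lgr6 transcripts shows. One assembled Lgr5 transcript of 5 exons and 3506 bases likewise begins inside the gene, at 115458999 on chromosome 10, and reaches its end. The table gives no level per transcript, so the use of these starts was not measured.

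The rest of the pathway was read from a list of 100 further genes grouped by role, of which 79 were detected, 41 of them at a locus of their own, beside 67.6% of all protein-coding gene symbols. Single genes named here are the highest per kb at loci of their own and the relatives of the 10 genes. Of 17 other Wnt ligands 7 were detected, 2 of them at loci of their own, and 3 were listed at 0 compatible fragments. Wnt9a, at 61.9 ± 24.8 per kb, and Wnt4, at 56.7 ± 33.0 per kb, led those with a locus of their own, and both had a higher mean than Wnt10a. Higher levels were read at the shared loci of Wnt5a (3920 fragments) and Wnt5b (1043), which were named after their values were seen. Among the other R-spondins and Norrin, which activates a Frizzled receptor without being a Wnt, 1 of 4 was detected, Norrin's gene Ndp at 21.4 ± 23.6 per kb. All 3 genes of ligand processing were detected, 1 of them at a locus of its own, Porcn, the enzyme that adds the lipid to Wnt proteins, at 112 ± 35.9 per kb. Of 16 inhibitors 10 (62.5%) were detected, a share near that of all protein-coding symbols, and 7 of them had a locus of their own. Here Dkk3 (405 ± 60.5 per kb) and Dkk2 (141 ± 45.2 per kb) were the highest at loci of their own.

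Of 15 receptors and co-receptors 14 were detected, 11 of them at loci of their own. The Frizzled gene Fzd1 stood out at 14436 fragments, 3468 ± 404 per kb, and was followed by the Wnt receptor kinase homologue Ryk at 1051 ± 133. Lgr5 at 875 ± 202 per kb lay within its own spread of Ryk and far below Fzd1. The ligases that the R-spondin and LGR pair acts on were both present, Znrf3 at 145 ± 25.1 per kb and Rnf43 at 116 ± 27.8, the latter at a locus of 3 gene symbols. All 15 cytoplasmic components were read at detected loci, but only 4 of them had the locus to themselves, and the fragments of the other 11 may in part be those of neighbouring genes. Those at loci of their own were led by the casein kinase gene Csnk1a1 at 4740 ± 279 per kb and the tankyrase gene Tnks2, whose product promotes Axin turnover, at 1251 ± 142. Per kb of its longest transcript Ctnnb1 was above all of these at 10596, but its locus holds 5 gene symbols. Divided by all merged exons of that locus, a length not used for the other genes here, it was 2723. That is below the values given for Csnk1a1 and Fzd1.

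The 14 nuclear factors also lay at detected loci, 7 of them at loci of their own. The co-repressor genes Ctbp1 and Tle4 had 1912 ± 114 and 459 ± 72.5 per kb. Of the relatives of Lef1, Tcf7l2 had 331 ± 43.7 per kb at a locus of 2 symbols, close to the 307 ± 37.1 of Lef1. Tcf7l1 was read at a locus of 7 symbols (357 fragments) and Tcf7 at one of 19 (30891 fragments), so neither level can be given to the gene itself. Of 9 commonly used target genes 8 were detected, 5 of them at loci of their own, the latter led by the TNF receptor family gene Tnfrsf19 at 581 ± 124 per kb and the feedback inhibitor gene Nkd1 at 478 ± 72.0, both above Axin2. All 5 listed genes of the LRIG and EGF receptor families were detected, 2 of them at loci of their own.

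**Figure D5:**
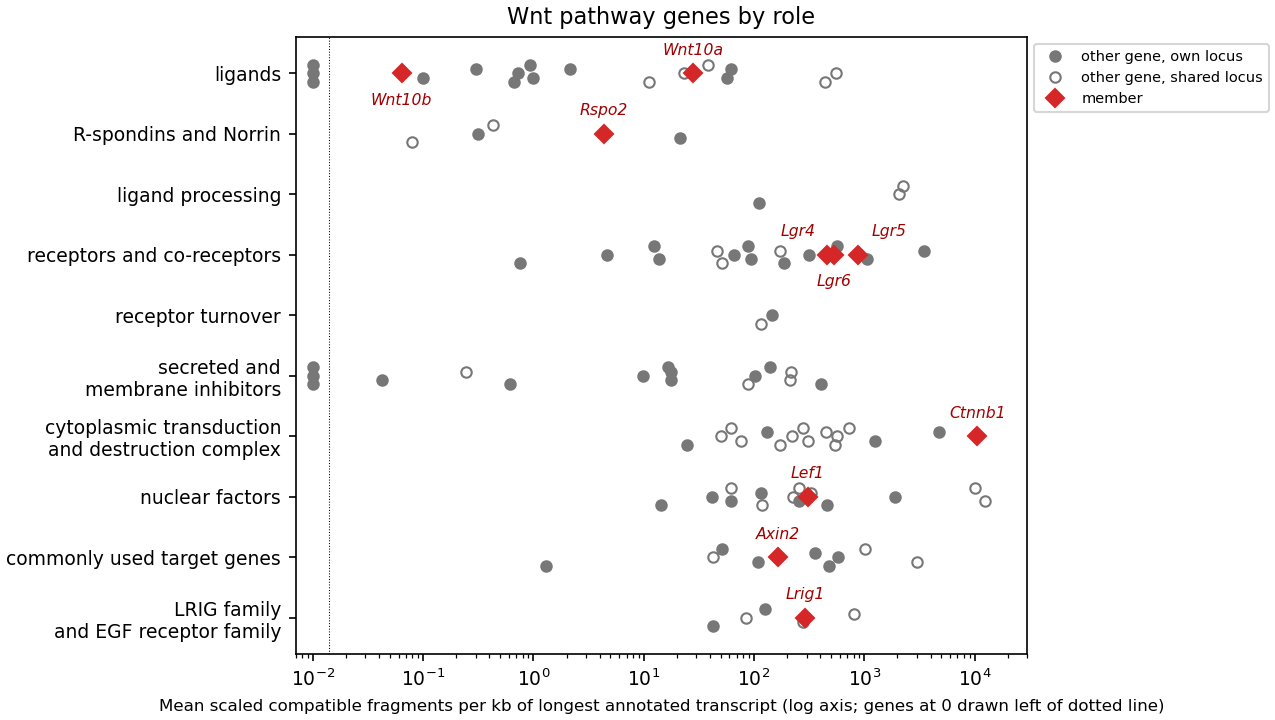
Level per kb of the longest annotated transcript, on a log axis, of 100 pathway genes by role (grey; filled for a gene with its own locus, open for a shared locus, where the level is that of the whole locus) and of the 10 genes described (red diamonds); genes listed at 0 are drawn left of the dotted line. Ligands, R-spondins and inhibitors reach down to 0 or near it, while all cytoplasmic and nuclear genes lie at 14.3 per kb or above.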

How the data were processed

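RNA of 21 circumvallate taste bud libraries was sequenced, 7 per group per the labels. Per the submitters' processing notes, tools included Trimmomatic and FastQC for reads, TopHat with Bowtie2, and Cufflinks with Cuffdiff, all without a version, on GRCm38.p4. Deposited were a merged annotation, from which exon coordinates were used, and a table by the authors that, per the file headers, is Cuffdiff's variance model. Its deposited values are a signal, namely the mean and variance per locus of size-factor-scaled compatible and total fragments and a fitted variance. Library depth and size factors are not in it.

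The 10 genes, the pathway and marker lists and all measures were chosen with earlier results of these data known. Pathway genes were named as the 2 highest per kb of each role among detected genes with a locus of their own, plus close relatives of the 10. Genes were placed by the exons of their locus. Excess variance is the log2 ratio of the variance to the fitted one, or to a running median over 201 loci nearest in mean (fewer, but centred, at the ends). Loci with fragments in 1 library, recognised by their squared CV (relative tolerance 0.0001), matched sets of 6, 7 and 8 libraries (454, 667 and 474 loci), whereas the labels give 7 each. The variance is thus one within sets, and leaves out differences between sets, and the least share of the leading library is the squared CV plus 1, over 21. The running median was tested on simulated data drawn at the authors' fitted variance. Of the real detected loci only 26.1% lay above that variance, so the simulation differed from the data in spread. Introns, exons and their sequences come from GENCODE M21, promoters from RefSeq. Alternatives were other lengths, total fragments, other detection minimums and single-symbol loci. Software was Python 3.11.15 with pandas 2.3.3, numpy 2.4.6 and, for plots, matplotlib 3.10.9.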

Additional observations from a re-analysis of the deposited data

How the results depend on the processing

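No paired analysis was possible because the table holds no value per library or group, and for the same reason no library could be left out. The median level of the 10 genes was 298.8 per kb and moved to 161.6 per kb over the union of all merged exons of a locus and to 193.6 over the union of annotated exons. The ratio of Lgr5 to Lgr6 of 1.64 became 0.714 and 0.784 under these lengths. The ratio of Wnt10a to Rspo2 became 0.997 for total fragments not divided by length. For compatible fragments, detected genes above the reference variance numbered 2 by the fitted variance and 5 by the running median. For total fragments they numbered 4, also by a running median, that of total fragments. Neither alternative thus used the fitted variance. In these 2 alternatives, in that order, the excess changed sign for Lgr6 (0.76 and 0.76) and Rspo2 (0.26 and 0.16). For Lrig1 it changed sign only by the running median of compatible fragments (0.053). Over all detected loci the median excess by the fitted variance was -0.65, and 26.1% lay above it, against 49.7% above the running median. The cause of the changes of sign was not tested. Of the 100 pathway genes 79 were detected, and 41 of them lay at single-symbol loci, fewer because shared loci were left out. Detection of the 10 genes was 9 with a minimum of 1 or by total fragments and 8 with a minimum of 50. The protein-coding length, the ratios of gene pairs and their alternatives were added after seeing the data. Precision at Wnt10b and Rspo2 was limited by few fragments.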
